A study of Mus musculus with 48 samples.

Results

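The neurexin, neuroligin and LRRTM genes are a group of 9 genes, Nrxn2, Nrxn3, Nlgn1, Nlgn2, Nlgn3, Lrrtm1, Lrrtm2, Lrrtm3 and Lrrtm4, out of 48526 genes in a table of RNA-seq counts from mouse cortex. They were found by matching the Ensembl identifier of each row to these symbols in the GENCODE M21 annotation. The rule itself uses names and no measured value, but the symbols were picked with earlier results of these data known. The table held 48 libraries from the cerebral cortex of 12 male wild-type C57BL/6JRj mice, 4 mice at 3 weeks (3w), 4 at 5 months (5m) and 4 at 18 months (18m) of age. No treatment or engineered allele separated the ages, and the label of the middle group reads 6 months while the preparation protocol gives 5 months. Each mouse gave 4 libraries. Total homogenate (TH) is the homogenised cortex, and the synaptosome fraction (SYN) is the material collected from a sucrose gradient that holds pinched-off synaptic terminals. From each of them RNA was sequenced before (input) and after pelleting of ribosomes through a sucrose cushion (SC), so that the 4 fractions are input_TH, SC_TH, input_SYN and SC_SYN, with n = 4 mice per fraction and age. A pellet under a cushion holds RNA bound to ribosomes and any other dense particle, and the homogenate lysate, but not the synaptosome lysate, was first cleared by a spin.

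Neurexins are presynaptic adhesion proteins that reach across the synaptic cleft and bind a range of postsynaptic partners, among them the neuroligins and the leucine-rich repeat transmembrane (LRRTM) proteins. Neuroligin 1 is found mainly at excitatory synapses and neuroligin 2 at inhibitory synapses, while neuroligin 3 is found at both, and the LRRTM proteins act at excitatory synapses where they help to hold AMPA receptors. Such proteins are called synaptic organizers because either partner, presented to a neuron, can induce the assembly of the opposite side of a synapse.

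The final 90 coding bases of the neurexins and neuroligins, stop codon included, encode the end of the intracellular tail. With this end neurexins bind the scaffold CASK and neuroligins bind scaffolds of the PSD-95 family. The bases are shown because paralogous members differ in base composition, and several results for these genes moved with base composition. Capitals mark G and C. The sequences were read from the GENCODE M21 gene models on GRCm38, 5′ to 3′ on the coding strand, at chr19:6532059-6532148 (plus strand) for Nrxn2, chr12:90332321-90332410 (plus strand) for Nrxn3, chr3:25433638-25433727 (minus strand) for Nlgn1, chr11:69825203-69825292 (minus strand) for Nlgn2 and chrX:101320173-101320262 (plus strand) for Nlgn3.
Nrxn2: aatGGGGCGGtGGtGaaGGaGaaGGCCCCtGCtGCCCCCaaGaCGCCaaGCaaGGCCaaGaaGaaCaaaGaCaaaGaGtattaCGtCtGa
Nrxn3: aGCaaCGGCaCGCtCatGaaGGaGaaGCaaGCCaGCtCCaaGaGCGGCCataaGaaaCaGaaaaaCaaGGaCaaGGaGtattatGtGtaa
Nlgn1: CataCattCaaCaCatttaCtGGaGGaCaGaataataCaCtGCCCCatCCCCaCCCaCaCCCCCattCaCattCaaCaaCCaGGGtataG
Nlgn2: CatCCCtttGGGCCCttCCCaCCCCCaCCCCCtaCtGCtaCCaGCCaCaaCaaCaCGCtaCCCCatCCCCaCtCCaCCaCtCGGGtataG
Nlgn3: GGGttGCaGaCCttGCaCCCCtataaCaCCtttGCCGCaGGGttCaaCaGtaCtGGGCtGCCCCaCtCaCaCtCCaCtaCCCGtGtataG
In this stretch Nrxn2 held 49 G or C bases and Nrxn3 42, and they shared 49 of 90 positions without gaps. Nlgn1 held 42, Nlgn2 56 and Nlgn3 51, with 47 shared positions between Nlgn1 and Nlgn2, 34 between Nlgn1 and Nlgn3, and 41 between Nlgn2 and Nlgn3. Over the whole coding sequence, G or C stood at the third codon position in 77.03% of codons of Nrxn2 and 63.04% of Nrxn3, and in 43.48% of Nlgn1, 73.72% of Nlgn2 and 63.12% of Nlgn3.

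Over the longest annotated transcript of each gene, untranslated regions included, the members ran from GC-poor to GC-rich. Lrrtm4 (38.35% GC), Lrrtm2 (38.43%) and Nlgn1 (38.91%) were lowest, Lrrtm3 (44.48%), Nrxn3 (47.53%), Nlgn3 (49.28%) and Lrrtm1 (54.7%) lay between, and Nlgn2 (60.74%) and Nrxn2 (62.43%) were highest. The GRCm38 gene positions are chr19:6418731-6544169 for Nrxn2, chr12:88722876-90334935 for Nrxn3, chr3:25426215-26332460 for Nlgn1, chr11:69823122-69837784 for Nlgn2, chrX:101299168-101325963 for Nlgn3, chr6:77242689-77257791 for Lrrtm1, chr18:35209003-35215024 for Lrrtm2, chr10:63928472-64090277 for Lrrtm3 and chr6:80018877-80810143 for Lrrtm4. Lrrtm1, Lrrtm2 and Lrrtm3 lie within the α-catenin genes Ctnna2, Ctnna1 and Ctnna3 on the opposite strand, with all 3033, 6022 and 4251 of their exonic bases between the ends of the host gene, of which Lrrtm2 shares 95 with Ctnna1 exons and Lrrtm1 and Lrrtm3 share 0 with their hosts. Counting ignored the strand of a read, and unspliced host RNA cannot be told apart from Lrrtm RNA there. Nlgn3 shares 3823 of its 9271 exonic bases with Gm21986 on the same strand, and reads that fall on a shared exon depend on how the counter treated such overlaps. Nlgn1 shares 1229 exonic bases with A830092H15Rik, Lrrtm4 1543 with Gm4409, Nrxn2 682 with Slc22a12 and Nrxn3 439 with Gm37980, all on the opposite strand.

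Total counts ran from 9699909 to 13225435 per library in input_TH, from 3058278 to 15423546 in SC_TH, from 1780267 to 7879536 in input_SYN and from 5341263 to 18590040 in SC_SYN, and SC_TH was shallower at 3w (median 4448523) than at 18m (12328632). The 9 members held between 80 (Lrrtm4 in input_SYN) and 26136 (Nrxn2 in SC_SYN) counts in a library, and all 9 passed the filter on low counts in every fit. The input_SYN libraries of the 3-week mice 189 and 190 were the shallowest (1883022 and 1780267 counts), and the input_TH library of the 5-month mouse 191 stood apart from the rest of its fraction on the second principal component. The dendritic and synaptic mRNA markers (Camk2a, Shank1, Dlg4, Ddn, Map2) were higher in SYN than TH in 4 to 5 of 5 cases at each age and the nuclear RNAs (Malat1, Meg3, Neat1, Snhg11, Miat) lower in 4 to 5 of 5. The summed level of 8 neuronal markers was 2999 to 6394 CPM (counts scaled to a common library total) in TH and 7823 to 10302 in SYN, although single markers went both ways, with 2 of 8 higher and 5 to 6 lower in SC_SYN than in SC_TH, and 3 to 4 higher and 1 to 3 lower in input. Astrocyte markers were higher in SYN in 6 of 6 cases (summed level 12362 to 16762 CPM against 3405 to 6556) and endothelial markers lower in 5 of 5 (8.53 to 25.6 against 61.5 to 211 CPM), and Cldn5 was at 0 in 1 library each of input_SYN and SC_SYN. Microglia markers were higher in SYN in 5 to 6 of 6 cases (summed level 279 to 903 CPM against 152 to 315), and in SC_SYN 4 of 6 rose from 3w to 5m (455 to 529.8 CPM at 3w and 754 to 903 at 5m, without overlap). Between 3w and 5m the 6 oligodendrocyte markers fell in each of the 4 fractions, from 5062 to 6307 down to 2009 to 2289 CPM in input_TH, and precursor markers fell in 2 to 4 of 4. The part of these cell types in the results for the members was not tested, and in bulk tissue fewer cells of a type cannot be told apart from less RNA per cell.

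Levels are given as CPM scaled by the trimmed mean of M values (TMM) over the 48 libraries, and between genes as CPM per kilobase of exon. Per kilobase, Nlgn2 was the most abundant member in every fraction and age, at 45.0 to 52.3 CPM per kilobase in input_TH and 189 to 216 in input_SYN at 5m. Nrxn2 came next, at 29.2 to 30.4 and 129.5 to 151, followed by Nrxn3 at 26.4 to 29.6 and 49.3 to 59.6. The 4 libraries of Nlgn2 and Nrxn2 overlapped per kilobase in SC_SYN at 5m and 18m, and did not overlap in the other 10 combinations of fraction and age. Nrxn2 and Nrxn3, which overlapped in input_TH at 5m, were far apart in SYN. Lrrtm1 was the most abundant LRRTM gene in every group, at 10.8 to 12.2 CPM per kilobase in input_TH and 35.8 to 49.3 in input_SYN at 5m, where it overlapped Nrxn3. Lrrtm4 had the lowest mean throughout, at 5.00 to 6.49 and 7.68 to 10.3. Its libraries overlapped those of the member next above it in input_TH at each age and in SC_SYN at 5m. Nlgn1, Nlgn3, Lrrtm2 and Lrrtm3 lay between, and neighbours among these 4 overlapped in most groups. In input_TH at 5m, Nlgn1 (6.56 to 7.71), Lrrtm2 (6.23 to 7.89) and Nlgn3 (5.98 to 7.59) could not be ordered beyond the spread of the 4 mice, and in input_SYN Nlgn3 (19.6 to 25.6) lay above Nlgn1 (11.7 to 13.5) without overlap.

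**Figure D1:**
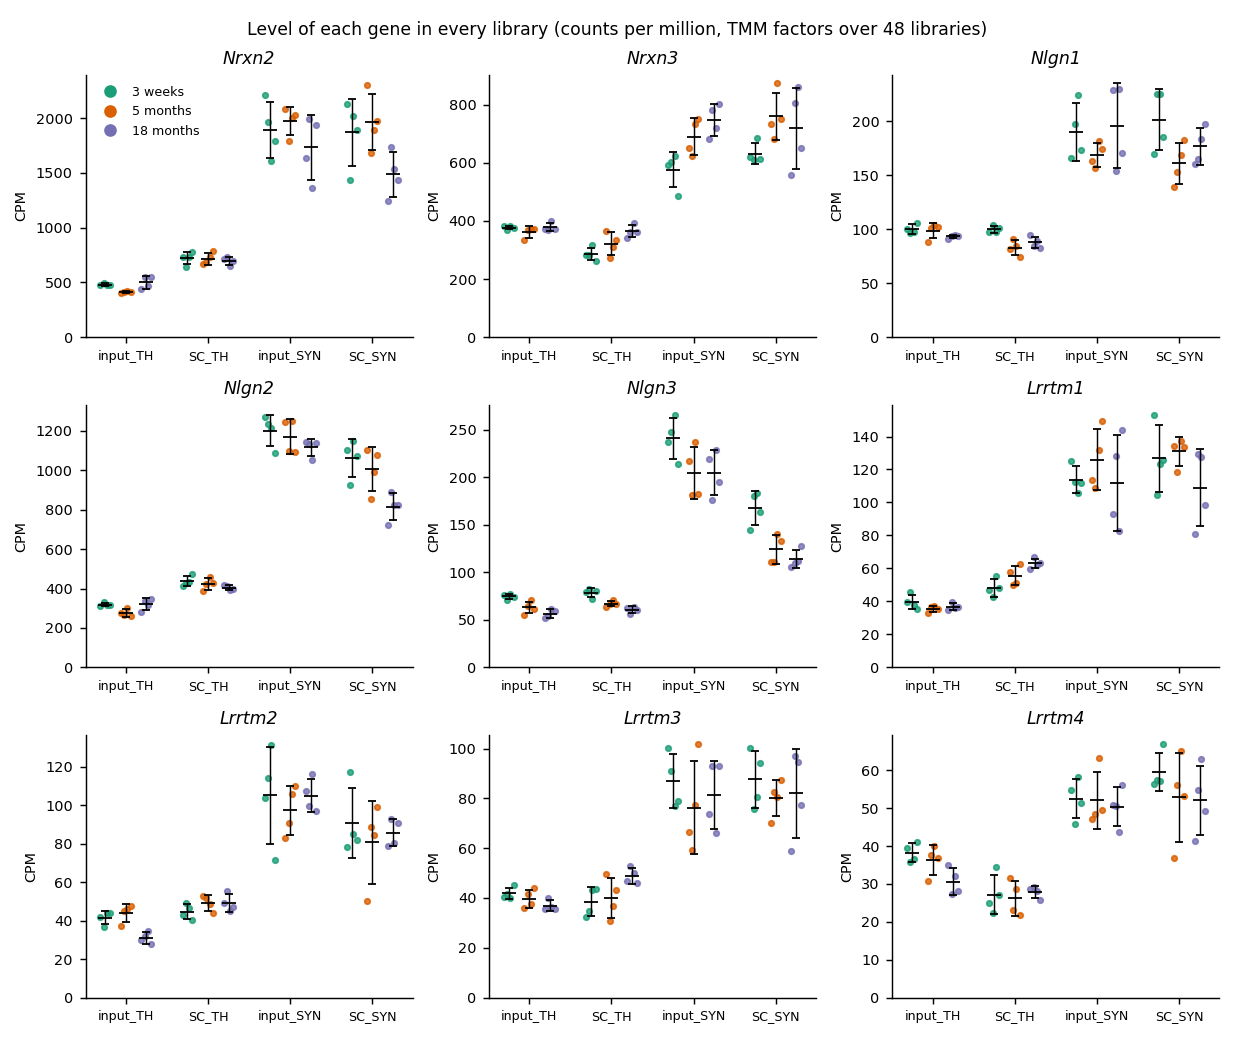
Level of each neurexin, neuroligin and LRRTM gene in CPM on a linear axis, in the 4 fractions, with a point for each of the 4 mice of each age. Under TMM scaling the SYN libraries of input and of the pellet lie above those of TH at each age, except for Lrrtm2. Its lowest SC_SYN library at 5 months (50.0 CPM) falls within the SC_TH range (43.9 to 52.8 CPM). For Nrxn2 at 5 months the input values are 404 to 420.2 CPM in TH and 1789 to 2080 CPM in SYN.

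The first comparison asked whether RNA of these genes was more abundant in synaptosomes than in homogenate. A gene was called where its adjusted p in edgeR's quasi-likelihood test, by the Benjamini-Hochberg method over all genes tested, was under 0.05. In the input libraries 9 of 9 members were higher in SYN at 3w, at 5m and at 18m. Of all genes tested, 31.7% were higher in SYN at 3w, 32.6% at 5m and 32.9% at 18m. The median log2 fold change over the 9 members was 1.35, 1.15 and 1.63 at the 3 ages, against -0.18, -0.18 and -0.12 over all genes.

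Nrxn2 had the largest difference of the members at 3w and 5m. Its input level at 5m was 404, 417, 420.2 and 410.0 CPM in TH (mice 191 to 194) and 2080, 1789, 2001 and 2025 CPM in SYN, a log2 fold change of 2.26 ± 0.11 (SE). All 4 SYN libraries were more than 4 times as high as any TH library. Nlgn2, the neuroligin of inhibitory synapses, stood at 277, 266, 303 and 260.3 CPM in TH and 1247, 1096, 1251 and 1091 in SYN (2.09 ± 0.08). The other neurexin, Nrxn3, differed less, with 333, 369, 373 and 372 CPM in TH and 652, 622, 734 and 751 in SYN (0.94 ± 0.08), again without overlap. At 3w the values were 1.98 ± 0.10 for Nrxn2 and 0.62 ± 0.08 for Nrxn3.

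Among the neuroligins, Nlgn3 (1.70 ± 0.10) lay between Nlgn2 and Nlgn1 (0.78 ± 0.11) at 5m. The input levels of Nlgn1, the neuroligin of excitatory synapses, were 88.0, 101, 103 and 102 CPM in TH and 163, 157, 181 and 174 in SYN. Lrrtm1 had the largest difference of the LRRTM genes at 5m, with 32.9, 36.5, 37.1 and 35.3 CPM in TH and 114, 109, 132 and 149.7 in SYN (1.84 ± 0.13). Lrrtm2 (1.15 ± 0.12) and Lrrtm3 (0.95 ± 0.13) followed. Lrrtm4 had the smallest difference of the 9 members, with 30.7, 37.7, 39.9 and 36.8 CPM in TH and 47.2, 48.3, 63.3 and 49.4 in SYN at 5m (0.52 ± 0.11). Scaling by library size alone moved the median of all genes to between -0.70 and -0.83, and the share of higher genes among those called in SYN against TH from between 44.6% and 45.5% to between 23.8% and 24.6%. Under that scaling Lrrtm4 turned to -0.13 at 3w and at 5m, and Nrxn3 at 3w, Nlgn1 at 5m and Lrrtm4 at 18m were no longer called.

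In the ribosome pellets 9 of 9 members were again higher in SYN at each age, within a narrower range of 1.06 to 1.44 at 3w, 0.74 to 1.48 at 5m and 0.78 to 1.12 at 18m. Of all genes tested, 31.1%, 32.1% and 29.9% were higher in SC_SYN at 3w, 5m and 18m. The median over the 9 members was 1.19, 1.02 and 0.94, against -0.04, -0.09 and -0.07 over all genes. Ribosome-pelleted Nrxn2 at 5m was at 664, 688, 729 and 786 CPM in TH and 2303, 1683, 1895 and 1974 in SYN (1.48 ± 0.12). Nlgn2 stood at 385, 425, 459.6 and 429 and 1101, 856, 989 and 1077 CPM (1.27 ± 0.09). For both genes every SYN library lay above every TH library. Lrrtm2 at 5m was the single case of overlap among the 27 comparisons of a member at an age, with 52.8, 52.0, 48.5 and 43.9 CPM in TH and 50.0, 88.6, 84.7 and 99.4 in SYN, where mouse 191 at 50.0 CPM fell within the TH range (0.74 ± 0.14, adjusted p = 7.64e-05, edgeR). Scaling by library size alone moved the median of all genes to between -0.59 and -0.68, and the share of higher genes among those called in SYN against TH from between 47.3% and 49.0% to between 20.5% and 25.4%. The 9 members kept a positive sign there, but Lrrtm2 at 5m (0.15) and 18m (0.30) and Lrrtm3 at 18m (0.25) were no longer called.

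**Figure D2:**
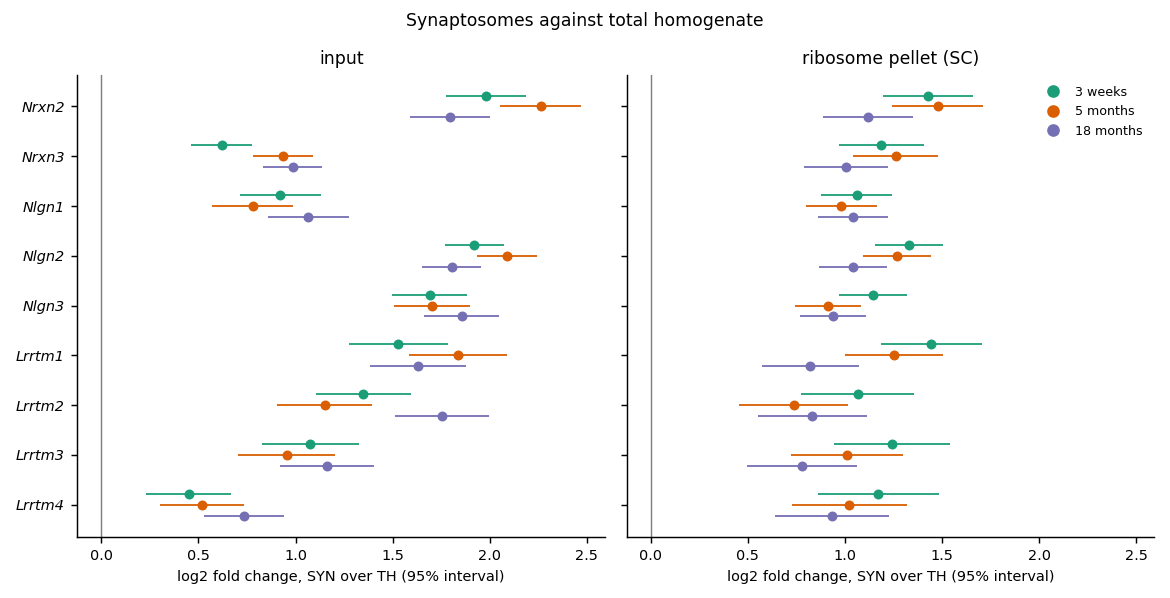
Log2 fold change of SYN over TH for each member with its 95% interval, in input (left) and in the ribosome pellet (right), at 3 ages and under TMM scaling. The 9 members lie above 0 in both panels, from 0.45 for Lrrtm4 to 2.26 for Nrxn2 in input and from 0.74 to 1.48 in the pellet. With library size in place of TMM, Lrrtm4 in input falls below 0 at 3 weeks and 5 months.

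The order of the members within this comparison ran with their GC content, least so in SC at 18m. Across the 9 members, Spearman's rho between GC content and the log2 fold change of SYN over TH was 0.83, 0.88 and 0.65 in input and 0.73, 0.68 and 0.40 in SC at 3w, 5m and 18m, against 0.26, 0.32 and 0.19 and 0.32, 0.37 and 0.22 over all genes tested. These are descriptions across genes measured in the same libraries. After the trends with GC content and exonic length were removed from the counts of all genes, the 9 members were called higher in SYN at each age in both kinds of RNA, but their order changed. In SC at 3w the removal raised Lrrtm4 from 1.17 to 2.20, Lrrtm2 from 1.07 to 2.08 and Nlgn1 from 1.06 to 2.00. It lowered Nrxn2 from 1.43 to 0.98 and Nlgn2 from 1.33 to 0.92. Nlgn3, whose GC content is near the middle, moved little (1.14 to 1.06).

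The second comparison set the ribosome pellet against its input, a measure of ribosome association. In SYN, Nlgn3 was lower in the pellet than in input at each age. At 3w it was at 237, 248, 265 and 214 CPM in input_SYN and 145, 179.8, 183 and 163 in SC_SYN (mice 187 to 190). At 5m it was at 217, 181, 237 and 183 against 111, 111, 140.4 and 133 CPM, and at 18m at 219, 176, 228 and 195 against 106, 109.9, 112 and 128 CPM. The pellet and input libraries did not overlap at any age. The log2 fold change was -0.55 ± 0.12 (adjusted p = 0.00195), -0.75 ± 0.12 (adjusted p = 5.45e-05) and -0.85 ± 0.12 (adjusted p = 2.46e-05, edgeR). With the GC and length trends removed it was -0.52, -0.75 and -0.85.

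Nlgn2 was lower in the pellet at 18m, with 1145, 1132, 1051 and 1139 CPM in input_SYN and 723, 891, 826 and 823 in SC_SYN (-0.45 ± 0.09, adjusted p = 0.00198, edgeR) and no overlap. At 5m its value was -0.25 ± 0.09, with an adjusted p of 0.0616 in edgeR and 0.0213 in DESeq2. Thus 1, 1 and 2 of 9 members were called in SYN at 3w, 5m and 18m, where 18.5%, 20.0% and 12.6% of all genes were called in either direction. The remaining members did not pass the test. Nrxn2, for example, had a difference of -0.03 at 5m with a 95% interval from -0.29 to 0.22, and Nrxn3 0.11 with an interval from -0.10 to 0.32. Library size in place of TMM moved the share of higher genes among those called at 3w from 48.8% to 59.4%.

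In TH, 5, 5 and 5 of 9 members were called at 3w, 5m and 18m, and 52.8%, 62.1% and 64.0% of all genes. Nrxn2 was higher in the pellet at each age, with 473, 497, 478 and 473 CPM in input_TH and 730.2, 644, 731 and 776 in SC_TH at 3w, and 404, 417, 420.2 and 410.0 against 664, 688, 729 and 786 CPM at 5m, none overlapping. The log2 fold changes were 0.60 ± 0.07, 0.80 ± 0.07 and 0.49 ± 0.07. Nlgn2 was higher likewise (0.48 ± 0.07, 0.62 ± 0.07 and 0.35 ± 0.07). Lrrtm1 was higher by 0.30 ± 0.09, 0.65 ± 0.09 and 0.80 ± 0.08, where the libraries overlapped at 3w, and that value lost the call without mouse 189 (0.20, adjusted p = 0.122). The host of Lrrtm1, Ctnna2, was also higher in the pellet in TH, by 0.28, 0.30 and 0.43.

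At 18m, Lrrtm2 was at 29.8, 32.0, 34.7 and 27.7 CPM in input_TH and 49.3, 55.7, 44.9 and 46.9 in SC_TH, without overlap (0.67 ± 0.09), and Lrrtm3 at 35.6, 40.0, 36.5 and 35.5 and 46.7, 53.0, 50.0 and 46.0 CPM (0.42 ± 0.11). Both were higher in the pellet, and the hosts stood at 0.83 ± 0.10 for Ctnna1 (adjusted p = 1.20e-07) and -0.29 ± 0.18 for Ctnna3 (adjusted p = 0.158). Nrxn3 went the other way from Nrxn2 at 3w, with 381, 369.7, 381 and 374 CPM in input_TH and 284, 282, 316 and 263 in SC_TH (-0.38 ± 0.08), and at 5m its value was -0.17 ± 0.07 with an adjusted p of 0.0512, or 0.0485 with the mouse as a block and 0.00340 without mouse 191. Lrrtm4 was lower in the pellet at 3w (-0.46 ± 0.13) and 5m (-0.45 ± 0.12), and Nlgn1 at 5m (-0.26 ± 0.06). The Lrrtm4 and Nlgn1 libraries overlapped at 5m. With the GC and length trends removed Lrrtm4 was -0.17 at 3w and turned to 0.17 at 5m, and Nlgn1 turned to 0.30 at 5m. Nrxn2 (0.78), Nlgn2 (0.62) and Lrrtm1 (0.63) remained called higher at 5m after that removal. The nuclear RNA sum in TH was 16374 to 19053 CPM in input and 5238 to 13617 in the pellet, and its part in these differences was not tested.

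**Figure D3:**
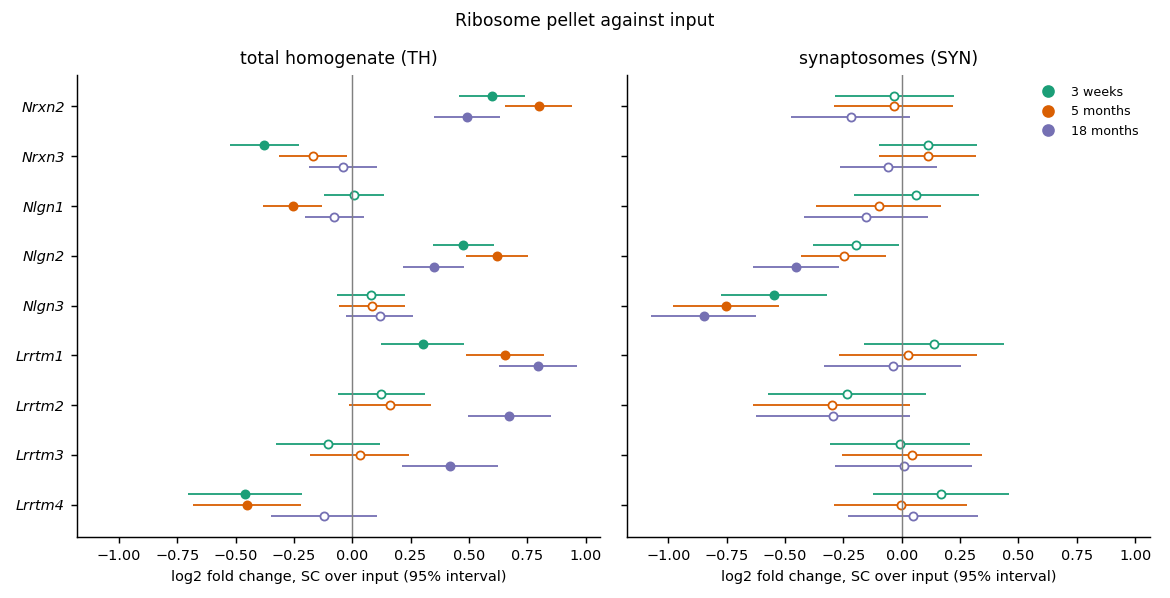
Log2 fold change of the ribosome pellet (SC) over input for each member with its 95% interval, in TH and in SYN, at 3 ages. In SYN the Nlgn3 intervals lie below 0 at the 3 ages, and in TH Nrxn2, Nlgn2 and Lrrtm1 lie above 0 at each age.

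Whether ribosome association changed with age was tested as an interaction. In SYN no member was called for 5m against 3w or for 18m against 5m, and neither was any other gene (edgeR, 0.00% and 0.00% of all genes), with 0 of 9 members at an unadjusted p under 0.05 in both steps and 0 members called by DESeq2. The Nlgn3 deficit in the SYN pellet differed by -0.21 between 5m and 3w, with a 95% interval from -0.53 to 0.11. In TH, 0 of 9 members were called for 5m against 3w (2 at an unadjusted p under 0.05, 0 by DESeq2, 2.33% of all genes) and 1 for 18m against 5m (1.78% of all genes). That member was Lrrtm2, whose pellet-over-input value was higher by 0.51 ± 0.13 at 18m (adjusted p = 0.0365, edgeR). The adjusted p was 0.0538 with the mouse as a block, 0.136 after removal of GC and length trends, and 0.0506 to 0.163 without mouse 192, 193, 194, 195, 196 or 198. Ctnna1, the host of Lrrtm2, stood at 0.38 ± 0.15 in the same interaction (95% interval 0.09 to 0.67, adjusted p = 0.186, edgeR). The part of host RNA in the Lrrtm2 value was not tested. DESeq2 called 3 members at this step, and without mouse 191 the adjusted p was under 0.05 also for Lrrtm3 (0.0168), Nlgn2 (0.0294) and Nrxn2 (0.0364). Library size in place of TMM moved the share of higher genes among those called in TH from 43.1% to 22.8% for 5m against 3w and from 34.1% to 52.9% for 18m against 5m.

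The third comparison followed the members with age within each fraction, first from 3w to 5m. Nlgn3 was the member that changed most often, falling in 3 of 4 fractions. In input_TH it was at 76.5, 71.1, 77.4 and 74.3 CPM at 3w and 55.4, 64.6, 70.3 and 61.8 CPM at 5m. In SC_TH it was at 79.7, 82.5, 71.5 and 80.4 and 63.9, 66.5, 70.7 and 66.4 CPM. In SC_SYN, Nlgn3 was at the 145, 179.8, 183 and 163 CPM given above for 3w and at 111, 111, 140.4 and 133 CPM at 5m. In each of these 3 fractions all 3-week libraries lay above all 5-month libraries. The log2 fold change was -0.25 ± 0.07 in input_TH (adjusted p = 0.0235), -0.23 ± 0.07 in SC_TH (adjusted p = 0.0420) and -0.48 ± 0.11 in SC_SYN (adjusted p = 0.0201, edgeR). In SC_SYN the summed microglia markers rose at this step, as given above, and their part in the fall of Nlgn3 was not tested. In input_SYN the groups overlapped and the value of -0.27 ± 0.12 did not pass the test (adjusted p = 0.262). Removal of the GC and length trends left Nlgn3 called in these 3 fractions at -0.25, -0.25 and -0.50. The call was lost in input_TH without mouse 187, 189, 191 or 194 (adjusted p 0.0595 to 0.0728), in SC_TH without mouse 187, 188, 190, 191, 192 or 194 (0.0529 to 0.112) and in SC_SYN without mouse 188, 189, 191 or 192 (0.0524 to 0.0675), where the fold change was -0.45 to -0.43.

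The other neuroligins differed by fraction. Nlgn2 fell in input_TH, from 310.1, 329.5, 317 and 316 CPM to 277, 266, 303 and 260.3 CPM without overlap (-0.21 ± 0.06, adjusted p = 0.0436, edgeR). Nlgn1 fell in SC_TH, from 97.0, 104, 96.9 and 101 CPM to 81.8, 91.0, 84.6 and 74.1 CPM without overlap (-0.27 ± 0.07, adjusted p = 0.0218). In SC_SYN, Nlgn1 was at 169.7, 226, 225 and 185 CPM at 3w and 139, 153, 169 and 183 at 5m, which overlapped, and its value of -0.37 ± 0.12 had an adjusted p of 0.0712 in edgeR, 0.0286 in DESeq2 and 0.0469 without mouse 187. The neurexin Nrxn2 fell in input_TH, from 473, 497, 478 and 473 CPM to 404, 417, 420.2 and 410.0 CPM (-0.22 ± 0.06, adjusted p = 0.0301), with a gap between the ages. Nrxn3 and the 4 LRRTM genes did not pass the test in any fraction at this step, although Nrxn3 was called higher in SC_TH without mouse 192 (0.24, adjusted p = 0.0407). Nrxn3 in SC_SYN had a difference of 0.22 with a 95% interval from -0.02 to 0.47. The input_TH call of Nlgn2 was lost without any of the mice 187 to 192 or 194 taken singly (adjusted p 0.0510 to 0.135), that of Nrxn2 without mouse 187, 188, 189, 190, 192 or 194 (0.0512 to 0.0823), and that of Nlgn1 in SC_TH without mouse 188 or 194 (0.0561 to 0.0585).

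In counts, 3 of 9 members were called in input_TH, 2 in SC_TH, 0 in input_SYN and 1 in SC_SYN, all lower at 5m, where 11.8%, 17.9%, 3.22% and 8.05% of all genes were called. In input_SYN 2 members had an unadjusted p under 0.05 and DESeq2 called 0. The median over the 9 members was -0.08, 0.00, -0.07 and -0.18, against 0.01, 0.01, 0.00 and -0.01 over all genes. Library size in place of TMM moved the share of higher genes among those called from 40.3% to 59.2% in input_TH and from 50.0% to 39.2% in SC_SYN. Under it Nrxn2 was the single member called in input_TH, and Nlgn1 joined Nlgn3 in SC_SYN, with no member turning sign in these calls. Removal of the GC and length trends left Nlgn3 alone in input_TH and changed the set in SC_TH, where Nlgn1 went to 0.00, Nrxn2 (-0.22) and Nlgn2 (-0.25) were called lower beside Nlgn3, and Lrrtm2 (0.41) was called higher. A fit over the 48 libraries together called 0 members in input_TH and SC_TH and 3 in SC_SYN, where Nlgn1 (-0.32) was called lower beside Nlgn3 and Nrxn3 (0.27) higher. The nuclear RNA sum in SC_TH was 10290 to 13617 CPM at 3w and 7371 to 10989 at 5m, markers of oligodendrocytes fell in the 4 fractions as given above, and Ctnna2, the host of Lrrtm1, fell by 0.30, 0.26, 0.80 and 0.70 in input_TH, SC_TH, input_SYN and SC_SYN.

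From 5m to 18m, in the fits of each fraction alone, members were called only in input_TH, the total homogenate before ribosome pelleting. The uncalled SC_SYN values of Nrxn2 and Nlgn2, given below, were no smaller in size and opposite in sign. This step shares the 5-month libraries with the one before, so a low or high 5-month value enters both. Lrrtm2 fell from 37.5, 44.9, 46.3 and 47.5 CPM at 5m to 29.8, 32.0, 34.7 and 27.7 CPM at 18m (mice 195 to 198), without overlap (-0.50 ± 0.08, adjusted p = 0.00263, edgeR). Nrxn2 rose from 404, 417, 420.2 and 410.0 CPM to 441, 548, 463 and 550.2 CPM, where the highest 5-month library lay below the lowest 18-month library (0.28 ± 0.06, adjusted p = 0.00964). Nlgn2 rose from 277, 266, 303 and 260.3 to 281, 336, 318 and 348 CPM, where mouse 195 lay within the 5-month range (0.22 ± 0.06, adjusted p = 0.0320). The 3 of 9 members called compare with 15.5% of all genes. The calls of Lrrtm2 and Nrxn2 held when each mouse was left out in turn, while that of Nlgn2 was lost without mouse 192, 194, 196, 197 or 198 (adjusted p 0.0522 to 0.109). Without mouse 191, Lrrtm4 (-0.32, adjusted p = 0.0113) and Nlgn3 (-0.22, adjusted p = 0.0279) were called lower as well.

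These 3 input_TH changes lay at the ends of the GC range, with Lrrtm2 GC-poor and Nrxn2 and Nlgn2 GC-rich. Across the 9 members Spearman's rho between GC content and the log2 fold change was 0.83 in input_TH for 18m against 5m, and 0.53 over all 17971 genes with a GC value. In SC_SYN the sign of the relation was opposite, -0.88 over the 9 members and -0.50 over all genes. After the GC and length trends were removed, Lrrtm2 in input_TH was -0.24 (adjusted p = 0.0704), Nrxn2 0.06 and Nlgn2 0.01, and 0 members were called. A fit over the 48 libraries together also called 0, and library size in place of TMM, which moved the share of higher genes among those called from 52.7% to 32.6%, left Nlgn2 uncalled (0.16) and called Lrrtm4 (-0.29) and Nlgn3 (-0.21) lower. The source of the trend with GC content was not tested.

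**Figure D4:**
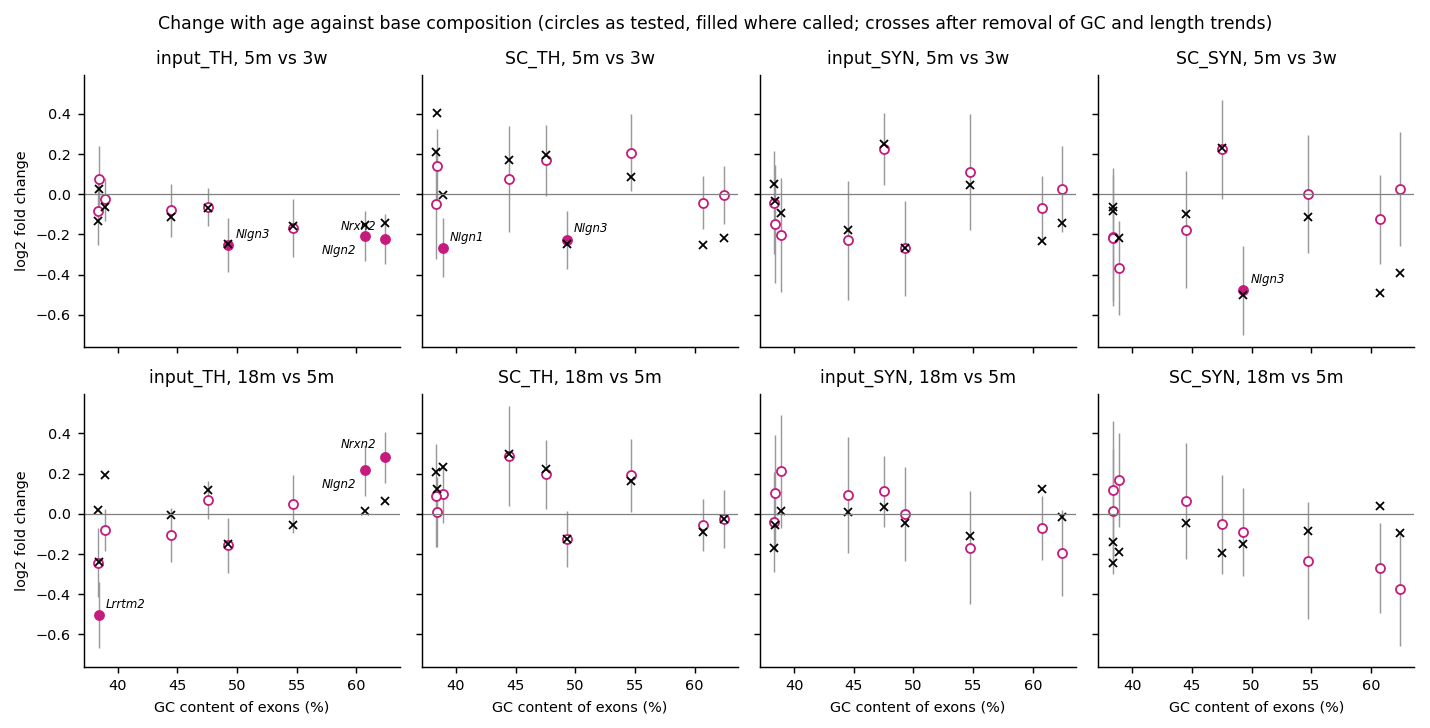
Log2 fold change with age of each member against the GC content of its longest annotated transcript, for both age steps and the 4 fractions. Circles show the values as tested with 95% intervals, filled where the adjusted p was under 0.05, and crosses show the values after removal of the GC and length trends. In input_TH from 5 to 18 months the circles run from -0.50 for Lrrtm2 to 0.28 for Nrxn2 and the crosses from -0.24 for Lrrtm2 to 0.19 for Nlgn1, and in SC_SYN at the same step the circles of the GC-rich members lie lowest.

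In the other 3 fractions 0 of 9 members were called from 5m to 18m by edgeR, where 2.17% (SC_TH), 0.139% (input_SYN) and 0.0140% (SC_SYN) of all genes were called. At an unadjusted p under 0.05 there were 2, 0 and 2 members, and DESeq2 called 0 in each. In SC_SYN these were Nrxn2, with 2303, 1683, 1895 and 1974 CPM at 5m and 1245, 1734, 1532 and 1434 at 18m (-0.37 ± 0.15, adjusted p = 0.233), and Nlgn2, with 1101, 856, 989 and 1077 and 723, 891, 826 and 823 CPM (-0.27 ± 0.11, adjusted p = 0.248). Both overlapped between the ages, and a fit over the 48 libraries together called both lower (adjusted p = 0.0190 and 0.0155). Nlgn1 in SC_SYN had a difference of 0.17 with a 95% interval from -0.06 to 0.40, and Lrrtm2 of 0.12 from -0.22 to 0.46.

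Whether the SYN over TH ratio of a member changed with age was tested directly. In SC, 0 of 9 members were called for 5m against 3w (0 at an unadjusted p under 0.05) and for 18m against 5m (2 at an unadjusted p under 0.05), 0 by DESeq2 in both, with 0.0301% and 0.00% of all genes called by edgeR. Lrrtm1 had the largest value, -0.43 ± 0.18 for 18m against 5m (95% interval -0.78 to -0.08). In input, 0 members were called for 5m against 3w (1 at an unadjusted p under 0.05, 0 by DESeq2, 0.0224% of all genes), where Nrxn3 was at 0.32 ± 0.11. For 18m against 5m in input, 0 members were called (3 at an unadjusted p under 0.05, 3 by DESeq2, 2.42% of all genes). Lrrtm2 stood at 0.60 ± 0.17 with an adjusted p of 0.0568, and 0.0238 with the mouse as a block. Nrxn2 stood at -0.47 ± 0.14 with an adjusted p of 0.0740, and 0.0199 with the block. Removal of the GC and length trends took these values to 0.20 for Lrrtm2 and -0.10 for Nrxn2, and library size in place of TMM moved the share of higher genes among those called from 41.7% to 67.9%.

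Ratios of paralogues within a library do not depend on how libraries are scaled. The log2 ratio of Nlgn1 over Nlgn2 counts, excitatory against inhibitory neuroligin, was at -2.67 ± 0.21 (SD, n = 4) in input_SYN and -1.67 ± 0.09 in input_TH at 3w, and the input libraries of SYN lay below those of TH at each age. In the pellets the SYN and TH libraries overlapped at each age, with means of -2.21 in both at 18m. These differences between fractions were not tested as ratios. In SC_SYN it was -2.64 ± 0.23 at 5m and -2.21 ± 0.16 at 18m, and 16 of 16 pairs of an 18-month and a 5-month library were higher at 18m (difference 0.44, exact two-sided permutation test p = 0.0286, adjusted p = 0.152). The log2 ratio of Nrxn3 over Nrxn2 was -0.35 ± 0.05 at 3w and -0.19 ± 0.06 at 5m in input_TH (difference 0.16, 16 of 16 pairs higher), and -1.52 ± 0.11 at 5m and -1.20 ± 0.20 at 18m in input_SYN (difference 0.32, 16 of 16 pairs higher), each with an exact permutation p of 0.0286 and an adjusted p of 0.152. The smallest p that 70 assignments of 4 against 4 mice allow is 0.0286, and over the 16 ratio tests 0 passed an adjusted p of 0.05. After adjustment a ratio test could pass only if most of the 16 reached that smallest p, so the lack of calls shows little. The members of each ratio differ in GC content, so the trend with GC is not removed by taking the ratio.

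**Figure D5:**
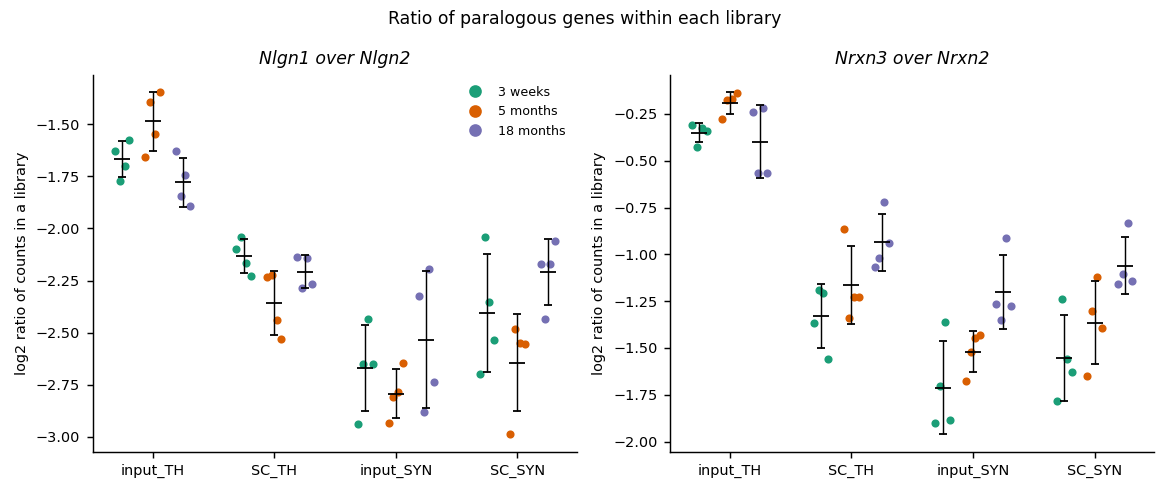
Log2 ratio of counts within each library for Nlgn1 over Nlgn2 (left) and Nrxn3 over Nrxn2 (right), in the 4 fractions, with a point per mouse and the mean and SD of 4 mice. In input the ratios lie lower in SYN than in TH at each age, in the pellets SYN and TH overlap, and in SC_SYN the Nlgn1 over Nlgn2 points at 18 months lie above those at 5 months.

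A list of 65 other synaptic organizers and partners was measured in the same fits. Of 21 extracellular ligands and partners of neurexins, 21 were higher in SYN than TH at 5m both in input and in SC, of 17 receptor tyrosine phosphatases and their ligands 15 and 16, and of 18 other adhesion organizers 18 and 18. Of 9 intracellular partners, 5 were higher and 1 lower in input, and 2 were higher and 3 lower in SC. Of all genes, 32.6% were higher in input and 32.1% in SC. Values at 5m in SC were high for the calsyntenins Clstn3 (2.01 ± 0.09) and Clstn1 (1.86 ± 0.08), the secreted C1ql2 (1.83 ± 0.20), the neuronal pentraxin receptor Nptxr (1.81 ± 0.10) the glypican Gpc4 (1.80 ± 0.10) and the teneurin Tenm2 (1.80 ± 0.11). The phosphatases Ptprs (1.47 ± 0.18) and Ptprf (1.44 ± 0.11) were higher too, as was their ligand Slitrk1 (1.34 ± 0.10). Of the intracellular scaffolds, the PDZ adaptor Apba1 (0.84 ± 0.10) and Dlg4, which encodes PSD-95 (0.59 ± 0.10), were higher in SYN, and Lin7a (-1.02 ± 0.17) and Gphn, the gephyrin of inhibitory synapses (-0.56 ± 0.14), were lower. The list had a median of 1.55 in input and 1.22 in SC, beside 1.15 and 1.02 for the 9 members and -0.18 and -0.09 for all genes.

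With age, 3 of 64 listed genes tested rose and 18 fell from 3w to 5m in input_TH, 8 rose and 5 fell in SC_TH, 2 rose and 2 fell in input_SYN, and 3 rose and 6 fell in SC_SYN. Over all genes, 11.8%, 17.9%, 3.22% and 8.05% were called in either direction in these fractions. The neurexin-binding kinase Cask fell in the 4 fractions, by 0.31, 0.22, 0.55 and 0.49 in input_TH, SC_TH, input_SYN and SC_SYN, and the phosphatase Ptprd fell by 0.27, 0.46, 0.47 and 0.63. The adhesion organizer Elfn2 rose in the 4 fractions, by 0.30, 0.57, 0.52 and 0.79. C1ql3, a secreted partner of neurexin 3, rose in SC_TH (0.34 ± 0.08) and SC_SYN (0.57 ± 0.14). From 5m to 18m, 9 listed genes rose and 5 fell in input_TH (15.5% of all genes called), 1 rose in SC_TH (Flrt2, 0.45 ± 0.09), and 0 were called in either SYN fraction (2.17%, 0.139% and 0.0140% of all genes in SC_TH, input_SYN and SC_SYN). In the pellet against input at 5m, 46 of 65 were higher and 7 lower in TH, led by Sparcl1 (1.66 ± 0.09), while in SYN 5 of 64 were higher and 6 lower, Sparcl1 again higher (0.85 ± 0.19) and Lrrc4c lower (-0.60 ± 0.15). Of all genes, 62.1% were called in TH and 20.0% in SYN.

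Across the 12 group means of log2 CPM (4 fractions by 3 ages), the members' patterns were much alike, with Pearson's r between 0.81 for Lrrtm1 and Lrrtm4 and 0.99 for Nrxn2 and Nlgn2. The 12 groups share the step between TH and SYN, and within a group the genes share libraries. Of 11538 other genes, the gene most like each member was Nectin1 for Nrxn2 (r = 0.998), Uxs1 for Nrxn3 (0.985), Bmpr1a for Nlgn1 (0.988), Paqr4 for Nlgn2 (0.999), Man1a2 for Nlgn3 (0.997), Thy1 for Lrrtm1 (0.997), Tmem106b for Lrrtm2 (0.996), Slitrk3 for Lrrtm3 (0.996) and Exd2 for Lrrtm4 (0.982), over the same 12 groups.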

How the data were processed

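Cortical libraries were made by the authors with a stranded kit (NEBNext Ultra II Directional) after rRNA depletion, with molecular identifiers in the adaptors, and sequenced single-end. Per the paper's methods and the submitters' processing notes, reads were demultiplexed with bcl2fastq 2.20.0.422, aligned with TopHat2 2.1 to GRCm38 and counted with featureCounts without strand. Whether identifiers were used to remove duplicates is not given in the sources used here. The deposited values are raw counts per gene, and all 48 libraries were used. Of 48526 identifiers, 48144 were in GENCODE M21, and the others held 0.0596% of counts. The 9 members and the gene lists were chosen with earlier results of these data known.

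Counts were fitted in R 4.3.3 with edgeR 4.0.16 (TMM, low-count filter, quasi-likelihood test), and p-values adjusted by Benjamini-Hochberg over all genes tested, with a threshold of 0.05. Printed CPM use TMM factors over the 48 libraries, whereas each fit computed its own factors. Intervals are 1.96 SE. GC content and length trends were removed by loess (span 0.5). Ratios were tested by exact permutation over all assignments of mice to ages, and Spearman's rho was computed with scipy 1.17.1. Alternatives included DESeq2 1.42.0, library-size scaling, other filters, thinned counts, one fit over the 48 libraries, the mouse as a block, and each mouse left out (96 fits). The scripts were tested on simulated data. Fractions with the same mouse number come from 1 animal, so the number pairs them, although deviations of such libraries correlated weakly (median r -0.00974 to 0.111 over 6 pairs of fractions). The mice are separate animals. Of the organizers, up to 4 genes per group of the list and comparison were eligible for naming, by the largest called change without overlap, and for each member the gene most correlated over the 12 group means.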

Additional observations from a re-analysis of the deposited data

Results flagged for a closer look

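In 8 of 108 groups of 4 libraries, 1 library lay far from the others of its group by Dixon's ratio (the gap to the nearest library over the whole range, against the 95% critical value for 4 libraries). Chance gives about 5% of such groups, or 5.4 of 108. In input_TH at 5m, mouse 191 was low for Nrxn3 (333 CPM against 369 to 373, ratio 0.898) and Nlgn1 (88.0 against 101 to 103, ratio 0.842). In input_TH at 18m, mouse 197 was high for Nrxn3 (398 against 369.9 to 373, ratio 0.888). In input_SYN, mouse 197 was low for Nlgn2 at 18m (1051 against 1132 to 1145, ratio 0.856) and mouse 193 high for Lrrtm4 at 5m (63.3 against 47.2 to 49.4, ratio 0.862). In SC_SYN at 3w, the high libraries were mouse 189 for Nrxn3 (683 against 610.0 to 619, ratio 0.882), mouse 188 for Lrrtm2 (118 against 78.6 to 84.9, ratio 0.838) and mouse 190 for Lrrtm4 (67.1 against 56.5 to 57.3, ratio 0.922).

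The difference of the ribosome pellet from input in TH changed from 5m to 18m for Lrrtm2, by 0.51 on the log2 scale in the test of the interaction. The host gene Ctnna1 stood at 0.38 ± 0.15 in the same test (adjusted p = 0.186, edgeR), and its part was not tested. Mean Lrrtm2 at 5m and 18m was 49.3 and 49.2 CPM in SC_TH, and 44.0 and 31.1 CPM in input_TH. As given above, the call was lost with the mouse as a block, after removal of GC and length trends, and without several single mice.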

How the results depend on the processing

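Over the alternatives run, 3722 values of single members kept their side of the threshold, 82 lost a call and 56 gained one. A further 10 reversed, which was counted only where a value was called in the main fit or the alternative. Among the 3722, values called in both kept their direction, while those uncalled in both could change sign. Nlgn1 in input_TH, 18m against 5m, ran from -0.14 to 0.19 and was never called. Of the counts of members called and the 16 ratio tests together, 530 values stayed and 60 counts moved. A count stayed if within 1.5 times, and a ratio test if on its side of the adjusted threshold. That the ratio tests stayed shows little, because with so few mice they could hardly pass that threshold. The 10 reversals were Lrrtm4 in input_SYN against input_TH with library size in place of TMM (-0.13 at 3w and at 5m), and Lrrtm4 and Nlgn1 in SC against input in TH after removal of GC and length trends, at 0.17 and 0.30 at 5m and 0.36 and 0.34 at 18m, and with the mouse as a replicate block as well at 0.17, 0.31, 0.36 and 0.35. 9 of 9 members were called higher in SYN than TH by DESeq2 and after removal of GC and length trends, at each age, in input and SC.

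For 5m against 3w in input_TH (3 members called), the count was 1 after GC and length removal, 0 in one fit over the 48 libraries and 1 with library size. In SC_TH (2) it was 4, and 0 in one fit, 1 with thinned counts, 0 without a filter and 1 with only these ages. In SC_SYN (1) it was 2 with DESeq2, GC and length removal or library size, and 3 in one fit. For 18m against 5m in input_TH (3) it was 0 after GC and length removal and 0 in one fit, and in SC_SYN (0) it was 2 in one fit. For the SYN over TH ratio in input, 18m against 5m (0), it was 3 with DESeq2, 2 with at least 10 counts, 1 with thinned counts, library size or no filter, and 2 with the replicate block. For SC against input in SYN it was 2 in place of 1 at 3w and at 5m after GC and length removal, with or without the block, and 2 at 5m with DESeq2 and in one fit. For the change of SC over input in TH it was 1 in place of 0 without a filter (5m against 3w), and in place of 1 (18m against 5m) it was 3 with DESeq2 and 0 after GC and length removal, in one fit, with thinned counts, and with the replicate block with or without that removal. The cause was not tested. With 1 mouse left out, counts ran from 0 to 3 and 2 to 5 in input_TH (5m against 3w, 18m against 5m), 0 to 2 in SC_TH and in SC_SYN (5m against 3w), 4 to 5 and 5 to 6 for SC against input in TH (3w, 5m), and 0 to 1 and 0 to 4 for its change with age. Leaving out the input_SYN libraries of mice 189 and 190, or the SC_SYN libraries of mice 195 and 198, alternatives chosen after seeing the data, changed no count of members.

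The mouse block could be fitted between fractions of the same animals, and changed the calls given in the report (Nrxn3 in TH at 5m, Lrrtm2 and Nrxn2 in the input SYN over TH ratio, Lrrtm2 in TH) and no other. No paired analysis was possible for the age steps because the ages were different mice. Over all genes, edgeR and DESeq2 called 2 and 322 in SC_SYN and 18 and 64 in input_SYN (18m against 5m), and 1146 and 1767 in SC_SYN (5m against 3w). For the SYN over TH ratio they called 5 and 55 (SC, 5m against 3w), 0 and 272 (SC, 18m against 5m), 4 and 32 (input, 5m against 3w) and 432 and 1109 (input, 18m against 5m), and for the SC over input ratio in TH 429 and 1175, and 328 and 752. Depth was lowest for Lrrtm4 in input_SYN, at 80 counts, and counting error there was largest.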
